A study of Arabidopsis thaliana with 2 samples.

Results

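AG-positive nuclei are nuclei of Arabidopsis inflorescences in which at least 1 molecule of AGAMOUS (AG, AT4G18960) was counted. They were chosen from single-nucleus RNA sequencing data as barcodes with at least 1000 detected nuclear genes and at least 1 unique molecular identifier (UMI, a tag that marks 1 captured RNA molecule) of AG, whether or not APETALA3 (AP3) or PISTILLATA (PI) was detected. The rule took 432 of 8942 nuclei, of which 282 of 4397 were in the day 3 library and 150 of 4545 were in the day 4 library. Since AG chose the nuclei, its own level in them is given only as a description.

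Both libraries came from ap1-1 cal-1 mutants of the ecotype Ler with the transgene pAP1:AP1-GR, and in both the main inflorescences were treated with 2 µM dexamethasone (DEX). The mutant makes meristems in place of flowers until DEX lets the AP1-GR fusion protein enter the nucleus, after which flowers start to form in synchrony. Day 3 was labelled stage 4 of flower development and day 4 stage 5, although the collection protocol given for each sample mentions the fourth day. Inflorescences of several plants were pooled for each library and nuclei were sorted by DAPI stain alone, so nuclei of stems and short pedicels may be present. The AP1 promoter drives the transgene in the same meristems, and UMIs of the transgene could not be separated from those of AP1. With 1 library per day there were no replicates, the sequencer and the PCR cycles differed with the day and cannot be told apart from it, and no test between groups was run. Each range in parentheses is a 95% interval, which covers only the error of counting.

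AG encodes the MADS-domain transcription factor of the C function in flower development. Together with the B function proteins AP3 and PI it specifies stamens in the third whorl, and without them it specifies carpels in the fourth, in each case with SEPALLATA (SEP) partners. AG is also known to restrict the A function gene AP1 to the outer whorls and to end stem cell activity in the centre of the flower. In the TAIR10.1 assembly the gene lies on the forward strand of chromosome 4 from 10382856 to 10388539.

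AG was sparse in the nuclei that held it. Nuclei with an AG UMI made up 6.41% (5.71 to 7.18) of the day 3 library but 3.30% (2.80 to 3.86) of the day 4 library. In all nuclei together AG contributed 377 UMIs at day 3 and 198 at day 4, or 34.0 (30.7 to 37.6) and 19.4 (16.8 to 22.3) UMIs per 1000000 nuclear UMIs (CPM). Most members sat at the threshold of the rule, since 218 nuclei at day 3 and 115 at day 4 had 1 AG UMI. At day 3, 43 nuclei had 2 AG UMIs, 17 had 3, 2 had 4 and 2 had 7, and at day 4, 24 had 2, 10 had 3 and 1 had 5. Near the gene minimum, 34 members at day 3 and 30 at day 4 had fewer than 1100 genes, and the lowest had 1000.

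AG-positive nuclei were deeper than the rest. Their median depth, in nuclear UMIs without AG, was 2343 against 1825 in AG-negative nuclei at day 3, and 2022.5 against 1796 at day 4. The AG-positive share of the deepest decile was 19.5% (15.9 to 23.6) on day 3 against 6.15% (4.13 to 8.77) on day 4, whereas the other deciles lay between 3.66% and 6.59% at day 3 and between 1.32% and 4.19% at day 4. The 2 nuclei with 7 AG UMIs had depths of 18080 and 31083 UMIs. Doublets were not removed, and the part they play in the deepest nuclei was not tested. For these reasons every comparison below was made with AG-negative nuclei of like depth from the same library. When every nucleus was thinned to 1000 UMIs, AG remained in 3.21% (2.71 to 3.77) of nuclei on day 3 against 1.85% (1.48 to 2.28) on day 4.

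**Figure D1:**
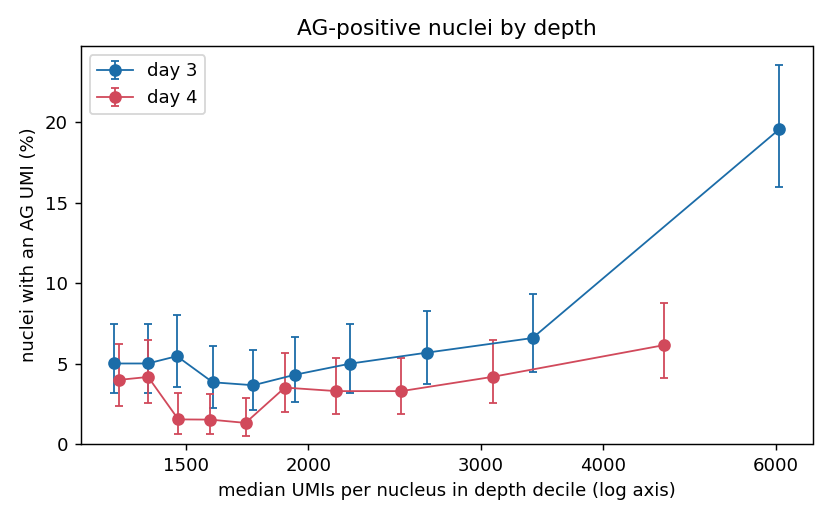
Share of nuclei with an AG UMI (percent, vertical axis) in each depth decile of each library, placed at the decile's median UMIs (horizontal log axis), with 95% Clopper-Pearson intervals as bars. The deepest day 3 decile stands at 19.5%, and the other 19 deciles lie between 1.32% and 6.59%.

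AG was also present in RNA outside nuclei. In 571328 day 3 barcodes with at most 100 UMIs, which hold free RNA for the most part, AG made up 32.5 CPM (22.5 to 45.5), or 0.956 times its level in nuclei. The same ratio was 1.05 for AP3, 0.894 for PI and 0.972 for the epidermal gene PDF1, so AG did not stand apart from other genes in this respect. At 1000 UMIs per nucleus, 1.54% of nuclei with at least 3 vascular markers held AG in each library, that is 6 of 389 (0.568% to 3.33%) at day 3 and 7 of 456 (0.619% to 3.14%) at day 4. Before thinning, with median depths of 1900 and 1960.5 UMIs, these shares were 4.63% and 1.97%, and 223 and 246 of these nuclei had just 3 of the markers. Of nuclei with at least 2 of AP3, PI, REM34 and SEP3, whose median depths were 1811 and 1681 UMIs, 9.95% (7.14 to 13.4) of the day 3 and 10.4% (6.88 to 14.8) of the day 4 nuclei held AG. The AG share was several times higher in nuclei with floral markers than in nuclei with vascular markers of similar depth, although the cuts differed. With at least 2 vascular markers the shares were 1.79% and 1.88%. AP3, PI, REM34 and SEP3 are themselves among the genes found higher with AG below. The floral share thus restates that result and is not separate evidence on free RNA. The vascular share of 1.54% stands beside 3.21% and 1.85% of all nuclei thinned in the same way, and nuclei with at least 3 cortex and photosynthesis markers held AG in 2.66% and 1.11%. AG from free RNA may therefore be present in an unknown number of members, and its part in the values below was not tested. The other side of the rule has the same limit, because a nucleus without an AG UMI may still contain the transcript.

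The B function genes were found with AG more often than depth predicted. In AG-positive nuclei, PI was counted in 162 of 282 nuclei at day 3 (57.4%) where AG-negative nuclei of like depth predicted 24.4%, and in 63 of 150 at day 4 (42.0%) where 13.5% was predicted. AP3 was counted in 150 nuclei at day 3 (53.2% against 31.1%) and in 64 at day 4 (42.7% against 18.1%). Both genes had more UMIs than predicted in each library. PI had 513 UMIs against 154 expected at day 3 and 138 against 35.6 at day 4, which gave observed over expected ratios of 3.34 (3.01 to 3.70) and 3.87 (3.21 to 4.64). AP3 had 475 against 242 and 140 against 49.3, with ratios of 1.96 (1.77 to 2.17) and 2.84 (2.36 to 3.38).

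AP3 or PI was present in 203 AG-positive nuclei at day 3 and in 87 at day 4, which was 72.0% and 58.0% of them, against 40.4% and 26.1% predicted. Both genes were present in 109 nuclei at day 3 (38.7% against 15.1%) and 40 at day 4 (26.7% against 5.48%). The remaining 79 and 63 members had no UMI of either gene, which at this depth does not show that they lacked the transcripts. Seen from the other side, AG was detected in 109 of 484 nuclei with both AP3 and PI at day 3, or 22.5% (18.9 to 26.5), and in 40 of 248, or 16.1% (11.8 to 21.3), at day 4. Without the deepest 8% of nuclei the share of members with AP3 or PI was 2.096 times the predicted one at day 3 and 2.39 times at day 4, against 1.78 and 2.22 times with them.

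**Figure D2:**
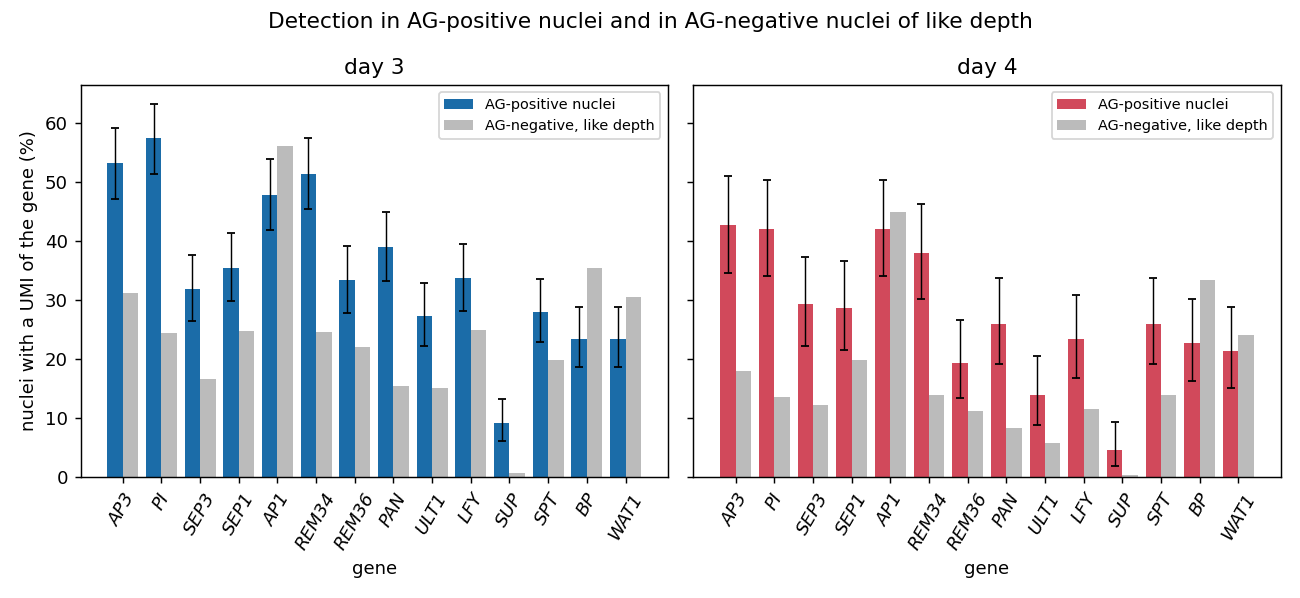
Percent of AG-positive nuclei with at least 1 UMI of each gene (coloured bars, 95% Clopper-Pearson intervals) beside the percent predicted from AG-negative nuclei of like depth (grey bars), at day 3 and day 4. PI was found in 57.4% and 42.0% of AG-positive nuclei against 24.4% and 13.5% predicted, while AP1, BP and WAT1 lie below their grey bars in both libraries.

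Across the transcriptome, few genes differed by at least 1.5 times between AG-positive nuclei and AG-negative nuclei of like depth. Of 6293 genes with at least 20 expected UMIs in each library, 19 (0.302%) had an observed over expected ratio of at least 1.5 in both libraries, and 96 (1.53%) had a ratio of at most 2/3 in both. In single libraries the upper threshold was passed by 58 genes (0.922%) at day 3 and 143 (2.27%) at day 4, and the lower one by 185 (2.94%) and 483 (7.68%). The median ratio of all tested genes was 1.01 at day 3 and 0.995 at day 4. The count of higher genes depends on the settings. With at least 2 AG UMIs per member 2 genes passed among 1130 that could be tested, and after thinning none of the 19 reached the minimum of expected UMIs, although 18 of the 19 still had a ratio over both libraries above 1.

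PI and REM34 headed the list of 19, which also held AP3 and REM36. REM34 and REM36 belong to the REPRODUCTIVE MERISTEM (REM) genes. The REM proteins are B3-domain transcription factors, several of which are expressed in reproductive meristems, and REM34, REM35 and REM36 are neighbours on chromosome 4. REM34 had 399 UMIs against 136 expected at day 3 and 159 against 43.7 at day 4, with ratios of 2.93 (2.62 to 3.28) and 3.64 (3.06 to 4.31), and was found in 145 and 57 members. REM36 had 191 against 109 and 44 against 26.9 UMIs, with ratios of 1.76 (1.50 to 2.05) and 1.64 (1.18 to 2.22). REM35 was under the minimum of expected UMIs at day 4, and had 39 against 25.1 UMIs at day 3 and 13 against 6.19 at day 4. The related REM22 had 130 against 50.8 and 37 against 12.2 UMIs, or 2.56 (2.09 to 3.13) and 3.02 (2.09 to 4.26) times the expected number. AT3G19184, annotated as another protein of the AP2/B3-like family, had 123 against 56.7 and 57 against 21.3 UMIs.

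SEP3, the SEPALLATA gene whose protein joins AG and the B function proteins in complexes, was the third floral MADS-box gene among the 19. It had 162 UMIs against 75.7 at day 3 and 73 against 27.6 at day 4, with ratios of 2.14 (1.79 to 2.54) and 2.65 (2.05 to 3.38), and it was found in 31.9% and 29.3% of members against 16.7% and 12.2% predicted. SEP1 reached 1.46 (1.23 to 1.73) and 1.43 (1.08 to 1.85), and SEP2 1.58 (1.36 to 1.83) and 1.27 (0.946 to 1.68). SEP4, with 71 against 67.4 and 27 against 28.8 UMIs, was at the level of AG-negative nuclei. The 4 SEPALLATA genes summed to 1.56 (1.43 to 1.71) and 1.52 (1.32 to 1.75) times the expected UMIs, with 1 of 4 past the threshold in both libraries. Against AG-negative nuclei with AP3 and PI the direction turned, with SEP3 at 0.973 over both libraries and the SEPALLATA genes at 0.844 at day 4.

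Other genes among the 19 act in chromatin, growth or signalling. AT1G76110, annotated as a DNA-binding protein with HMG-box and ARID domains, had 178 UMIs against 74.1 and 63 against 25.9, with ratios of 2.40 (2.03 to 2.83) and 2.44 (1.85 to 3.16). AGF2, an AT-hook DNA-binding protein named for its part in gibberellin feedback, had 263 against 148 and 89 against 32.4, with ratios of 1.78 (1.55 to 2.04) and 2.75 (2.18 to 3.42), and was found in 142 and 53 members. ERL1, a receptor kinase of the ERECTA family, had 359 against 234 and 189 against 87.6 UMIs. AIL6, an AP2-domain factor that acts with AINTEGUMENTA in floral organ growth, had 163 against 106 and 65 against 36.9. CRF2, a cytokinin response factor, had 344 against 227 and 83 against 55.1, just past the threshold with ratios of 1.51 in both libraries. CYP78A5, a cytochrome P450 that promotes organ growth, had 403 against 265 and 75 against 38.5, but 39 of its day 3 UMIs lay in 1 nucleus.

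The last 7 genes had ratios between 1.53 and 2.20 in single libraries. They were GCN2, a kinase that phosphorylates the translation factor eIF2α, DRL1, annotated as a dihydroflavonol reductase-like protein, the RNA-binding protein AT3G21100, AT3G11000 with a DCD domain, the heavy metal transport family protein AT1G56210, the ribonuclease-fold protein AT2G32415 and the uncharacterized AT4G28100. AT2G32415 was the only one of the 19 whose ratio over both libraries fell below 1 after thinning, at 0.725.

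**Figure D3:**
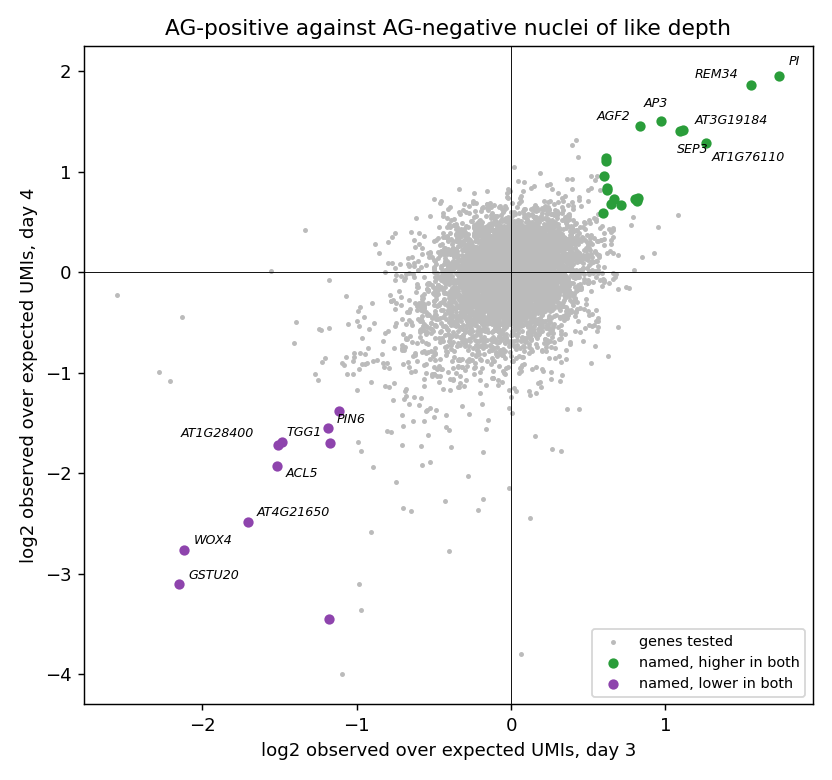
Log2 of observed over expected UMIs in AG-positive nuclei at day 3 (horizontal axis) and day 4 (vertical axis) for 6293 genes, with values below -4 drawn at -4, the 19 genes higher in both libraries in green and the 10 lowest genes in purple. PI and REM34 lie farthest to the upper right, while WOX4 and GSTU20 lie at the lower left.

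MADS-domain proteins such as AG bind the CArG box, a run of A and T bases between CC and GG that reads as the same pattern on both strands. The box was searched in the 1000 bases upstream of each gene start in the TAIR10.1 sequence, which comes from the ecotype Columbia and not from Ler. It was found for 7.22% of 27435 protein-coding genes and 7.56% of 6218 genes of the comparison, for 1 of the 19 genes higher in AG-positive nuclei (5.26%) and for 2 of 94 lower genes (2.13%). With 1 hit among 19 genes, the share cannot show whether the box is more or less common there than in the genome. The 2 windows that hold a box upstream of AGF2 and of SUPERMAN (SUP), a gene described below, are shown to place it, with the box in capitals. They lie at chr3:20607030-20607089 on the reverse strand, where the box starts 414 bases before the AGF2 start, and at chr3:8241295-8241354 on the forward strand, 936 bases before the SUP start, and neither overlaps an annotated gene.
AGF2: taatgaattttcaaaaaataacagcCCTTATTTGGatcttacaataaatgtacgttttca
SUP: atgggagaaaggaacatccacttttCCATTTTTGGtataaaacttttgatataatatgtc
A match in these letters is a description, and no binding was measured.

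SUP had the largest ratio among the floral regulators with at least 20 UMIs, on few counts. It encodes a zinc finger protein that keeps B function genes out of the fourth whorl and is expressed at the border between stamens and carpels. SUP had 38 UMIs in 26 members at day 3 where 2.50 UMIs in 2.13 nuclei were expected, and 7 UMIs in 7 members at day 4 where 0.643 in 0.580 nuclei were expected. The ratio over both libraries was 14.3 (9.39 to 21.8), and it was 2.63 (1.54 to 4.59) when the comparison was limited to AG-negative nuclei with both AP3 and PI. SUP was thus found in 9.22% and 4.67% of AG-positive nuclei, against 0.757% and 0.387% predicted. It was below the minimum of expected UMIs and so not among the genes called.

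Other regulators of whorl borders and organ boundaries followed at lower counts. RBE, a zinc finger gene of petal development, had 15 UMIs against 4.44 at day 3 and 5 against 0.869 at day 4. UFO, a partner of LEAFY in AP3 activation, had 20 against 14.2 and 6 against 4.76. LAS, a GRAS-domain gene of boundaries, had 43 against 10.4 and 10 against 3.78. The NAC-domain boundary genes CUC1, CUC2 and CUC3 had ratios of 1.72, 1.80 and 2.11 at day 3 and of 1.29, 3.15 and 1.22 at day 4. Together the 7 organ boundary genes had 1.67 (1.46 to 1.90) and 1.62 (1.28 to 2.01) times the expected UMIs, although none of the 7 reached 20 expected UMIs in both libraries. The list stood at 2.68 and 2.31 in AP3 and PI nuclei without AG, over nuclei without AG, AP3 and PI. Over the same kind of nuclei it was at 1.02 and 0.914 in AG-positive nuclei without AP3 and PI. It was at 0.979 and 0.948 when AG-positive nuclei were compared with AP3 and PI nuclei. Among nuclei with AP3 or PI, those with AG were at 1.31 (1.13 to 1.51) and 1.39 (1.07 to 1.78) over those without. PTL, which restrains growth between sepals, was close to 1 at day 3 with 36 against 32.0 UMIs and had 7 against 9.70 at day 4.

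Known activators of AG were higher in part. PAN, a bZIP factor that activates AG, had 168 UMIs against 70.4 at day 3 and 59 against 18.1 at day 4, with ratios of 2.39 (2.00 to 2.84) and 3.26 (2.44 to 4.29), and was found in 110 and 39 members. ULT1, a trithorax-type regulator of AG, had 130 against 68.8 and 29 against 10.8, with ratios of 1.89 (1.54 to 2.30) and 2.69 (1.77 to 3.96). LFY, which activates AG directly, had 157 against 116 and 55 against 24.8, with ratios of 1.35 (1.13 to 1.60) and 2.22 (1.65 to 2.92). WUS, the stem cell factor that activates AG with LFY, was almost absent, with 8 UMIs against 4.93 and 2 against 1.22. HUA2 and HEN4, which promote correct processing of the AG transcript, were near expectation, with 88 UMIs against 70.4 and 36 against 33.4 for HUA2 and 101 against 109 and 35 against 42.8 for HEN4. The 8 activators summed to 1.45 (1.34 to 1.56) and 1.51 (1.32 to 1.71), of which 4 could be tested and none passed the threshold in both libraries. Nuclei with AP3 and PI but no AG were also higher, at 1.40 (1.29 to 1.52) and 1.25 (1.11 to 1.40) over nuclei without the 3 genes. AG-positive nuclei without AP3 and PI were at 1.71 and 1.40 over the same kind of nuclei. Among nuclei with AP3 or PI, those with AG were at 1.29 (1.18 to 1.41) and 1.47 (1.25 to 1.73) over those without.

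Genes that repress AG were as a sum slightly above the level of AG-negative nuclei at day 3 and near it at day 4. The 15 repressors had 1.15 (1.10 to 1.20) and 1.02 (0.953 to 1.10) times the expected UMIs, and of 13 tested only AGL24, a MADS-box gene of inflorescence fate, was past the lower threshold in both libraries, with 37 UMIs against 65.9 and 17 against 27.4. The median ratio of the 13 was 1.07 and 0.973, with 5 above 1 in both libraries and 3 below 1 in both. ANT was at 1.35 (1.23 to 1.48) and 1.12 (0.948 to 1.31) and SOC1 at 1.38 (1.21 to 1.57) and 1.12 (0.914 to 1.37). BLR was at 1.28 (1.11 to 1.47) and 1.20 (0.919 to 1.55). The Polycomb gene CLF had 141 against 114 and 58 against 46.0, and the co-repressor genes SEU and LUH were slightly below expectation in both. Detection of AG in these nuclei was therefore not accompanied by low counts of most of its known repressors.

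A function genes were not higher. AP1 had 413 UMIs against 483 at day 3 and 157 against 163 at day 4, with ratios of 0.856 (0.772 to 0.947) and 0.961 (0.814 to 1.13), and transgene UMIs may be included. CAL, which is mutant in these plants, had 27 against 39.7 and 15 against 19.3 UMIs, and FUL 83 against 94.4 and 34 against 35.5. AP2, the A function gene outside the MADS family, had 188 against 177 and 62 against 72.6. The 4 genes summed to 0.896 (0.828 to 0.968) and 0.922 (0.813 to 1.04), so the level at day 4 could not be told from that of AG-negative nuclei.

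Relatives of AG and some of its targets in stamen and carpel development were barely detected. SHP2 had 2 UMIs in each library, SHP1 had 1 in each, STK had 1 at day 3 and 0 at day 4, and KNU, a zinc finger target of AG, had 0 in both, where 1.40 UMIs were expected at day 3. SPL, an AG target in sporogenesis, had 4 UMIs against 2.25 at day 3 and none at day 4. At these counts a difference was not detectable. Among genes with more UMIs, SPT, a bHLH gene of carpel margins, had 123 against 83.7 and 56 against 28.9, with ratios of 1.47 (1.20 to 1.78) and 1.94 (1.45 to 2.55). CRC, a YABBY gene of carpels and nectaries, had 39 against 21.4 UMIs in 11 members at day 3 and 10 against 3.50 in 4 members at day 4, but 17 of the day 3 UMIs lay in 1 nucleus. ATH1, a homeodomain gene of stamen and organ base development, had 86 against 56.2 and 47 against 18.7, and the receptor kinase gene EMS1 of anther development 54 against 30.6 and 14 against 9.13. The other 3 genes with enough UMIs to be tested were not higher. ALC, a bHLH relative of SPT, had 109 against 125 and 68 against 56.9 UMIs, and the receptor kinase genes BAM1 and BAM2 of anther development had ratios of 0.900 and 0.755 at day 3 and of 1.10 and 0.813 at day 4. The 26 genes of stamen and carpel development summed to 1.29 (1.21 to 1.37) and 1.43 (1.29 to 1.59), while the 4 tested genes had a median ratio of 0.887 and 1.15 and none was past the threshold in both libraries. The rise was not particular to AG-positive nuclei. Over nuclei without AG, AP3 and PI, the list stood at 1.62 and 1.67 in AP3 and PI nuclei without AG. AG-positive nuclei without AP3 and PI were at 1.43 and 1.36 over the same kind of nuclei. Among nuclei with AP3 or PI, those with AG were at 1.11 (1.03 to 1.19) and 1.26 (1.10 to 1.43) over those without.

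**Figure D4:**
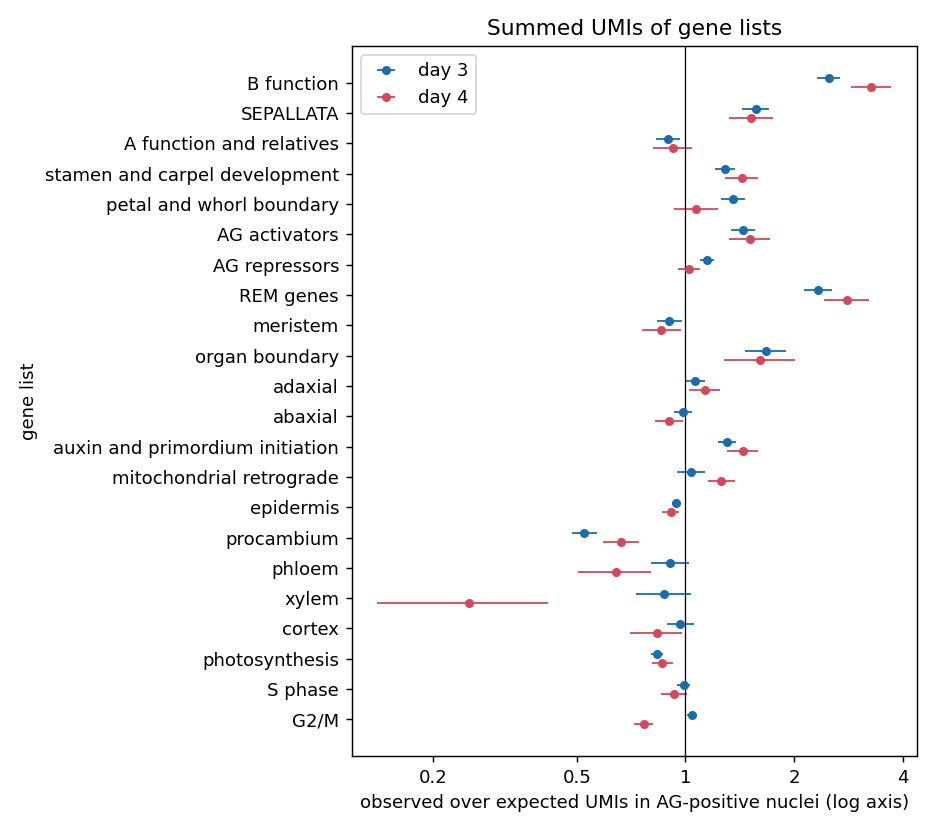
Summed UMIs of each gene list in AG-positive nuclei over those expected from AG-negative nuclei of like depth (horizontal log axis, points with 95% counting intervals), for day 3 and day 4. B function reaches 2.50 and 3.27 and REM genes 2.33 and 2.80, while procambium lies at 0.525 and 0.664.

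Procambium genes were below expectation in AG-positive nuclei in both libraries, while the phloem and xylem sums were clearly below it only at day 4. The procambium is the stem cell tissue of vascular strands. WOX4, a homeobox gene that maintains it, had 19 UMIs against 82.4 at day 3 and 3 against 20.3 at day 4, with ratios of 0.231 (0.138 to 0.363) and 0.148 (0.0304 to 0.434). WAT1, a vacuolar auxin transporter of vascular tissue, had 202 against 536 and 108 against 176. Of the 8 procambium genes, 6 were past the lower threshold at day 3 and 4 at day 4, and WOX4, WAT1, SMXL4 and BZIP9 were past it in both. Their median ratio was 0.544 at day 3 and 0.728 at day 4, beside 1.01 and 0.995 for all genes, and their sum was 0.525 (0.484 to 0.568) and 0.664 (0.590 to 0.745) times the expected UMIs. In nuclei with AP3 and PI but no AG the list stood at 0.407 and 0.451 times the level of nuclei without the 3 genes, and AG-positive nuclei compared with AP3 and PI nuclei gave 1.00 and 1.26, which turns the direction. WAT1 was found in 66 members against 85.9 predicted at day 3 and in 32 against 36.2 at day 4.

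ACL5, a thermospermine synthase gene that delays xylem death, had 37 UMIs against 106 and 7 against 26.6. The phloem genes summed to 0.907 (0.802 to 1.02) and 0.640 (0.505 to 0.801), and the xylem genes to 0.874 (0.731 to 1.04) and 0.251 (0.140 to 0.416). At day 3 the xylem sum rested on single nuclei, since 32 of 45 UMIs of the protease gene XCP2 and 30 of 31 of the cellulose synthase gene CESA4 lay in 1 nucleus each. Further down the list of 96, chosen after their values were seen, were CLE41 and CLE44, which encode peptide ligands of the cambial receptor PXY, with ratios of 0.591 and 0.596 at day 3 and of 0.467 and 0.236 at day 4. BAM3, a receptor of the protophloem, was at 0.614 and 0.345.

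Outside the vasculature, BP, a KNOX homeobox gene of stem and pedicel, had 123 UMIs against 234 and 67 against 113, with ratios of 0.525 (0.435 to 0.630) and 0.591 (0.457 to 0.753). The KNOX gene STM, which maintains meristems, had 201 against 183 and 65 against 56.5, and KNAT2 and KNAT6 had ratios between 0.798 and 1.06, so BP was alone among these KNOX genes past the threshold. The gene with the lowest ratio over both libraries among the 96 was GSTU20, a glutathione S-transferase, with 64 UMIs against 284 at day 3 and 4 against 34.4 at day 4. TGG1, the myrosinase of idioblast and guard cells, had 62 against 177 and 12 against 39.5, although at day 3 it was found in 31 members where 29.3 were predicted. The rest of the 10 lowest genes were PIN6, an auxin carrier gene, SAHH2 of the methionine cycle, the subtilase AT4G21650, the GATA zinc finger protein AT1G28400, the golgin-related AT3G52900 and the uncharacterized AT5G42530, with ratios between 0.0916 and 0.462 in single libraries.

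Markers of the epidermis were slightly below expectation in both libraries. Among nuclei with AP3 or PI, those with AG had 0.842 (0.815 to 0.870) and 0.772 (0.718 to 0.830) times the epidermis UMIs of those without. Among nuclei without AP3 and PI the values were 1.07 (0.998 to 1.15) and 1.11 (1.02 to 1.20). In all members the epidermis genes summed to 0.944 (0.917 to 0.971) and 0.909 (0.863 to 0.958), and PDF1, a layer-specific gene, was found in 195 and 87 members where 182 and 83.8 were predicted. The cortex genes summed to 0.969 (0.889 to 1.06) and 0.832 (0.704 to 0.977), and photosynthesis genes to 0.836 (0.805 to 0.867) and 0.863 (0.807 to 0.923). The cortex sum was carried by CO2, at 1.13 and 1.34, while the boron channel gene NIP5;1 was at 0.539 and 0.543, past the lower threshold in both libraries, and the zinc finger gene JKD at 0.727 and 0.728. The S phase genes stood at 0.989 (0.948 to 1.03) and 0.929 (0.854 to 1.01).

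The members were next divided by the B function genes, whose presence separates stamen from carpel identity in the ABC model. AG-positive nuclei with AP3 or PI (203 and 87) were compared with AG-negative nuclei that also had AP3 or PI (1296 and 1043). PI still had 1.96 (1.79 to 2.14) times the expected UMIs over both libraries, and AP3 had 1.23 (1.12 to 1.34), although both comparison groups were chosen for having these genes. REM34 reached 2.75 (2.45 to 3.09), with 326 UMIs against 119 at day 3 and 98 against 35.4 at day 4. SUP reached 9.42 (5.96 to 14.9), with 36 UMIs against 3.71 and 7 against 0.859. SEP3 had 146 UMIs against 101 and 56 against 31.4, and PAN was at 2.01 (1.70 to 2.38), whereas UFO was at 0.949 (0.590 to 1.46). AP1 was lower, at 0.781 (0.705 to 0.863), with 342 UMIs against 458 at day 3 and 102 against 110 at day 4. Within nuclei that expressed a B gene, those with AG therefore had more REM34, PAN and SUP, and less AP1 mainly at day 3. The 2 groups also differed in B genes. Both AP3 and PI were found in 109 of 203 and 40 of 87 nuclei with AG, but in 375 of 1296 and 208 of 1043 without. The part of this difference in the ratios was not tested. Against AG-negative nuclei with both AP3 and PI, 6 genes were at least 1.5 times higher in all AG-positive nuclei in both libraries, 2 of them among the 19, and 14 of the 19 had a ratio above 1.

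AG-positive nuclei without AP3 and PI (79 and 63) were compared with nuclei that had none of the 3 genes (2819 and 3352). Several regulators were higher there, whereas the organ boundary list stood at 1.02 and 0.914 and the petal and whorl boundary list at 1.04 and 0.801. REM34 had 73 UMIs against 23.8 at day 3 and 61 against 14.0 at day 4, a ratio over both libraries of 3.54 (2.94 to 4.23). SEP3 had 16 against 6.43 and 17 against 6.72, or 2.51 (1.71 to 3.57), PAN 24 against 7.65 and 15 against 5.60, or 2.94 (2.07 to 4.08), and ULT1 3.01 (2.03 to 4.32). SPT, of the carpel margin, had 24 against 12.6 and 28 against 10.3, or 2.27 (1.69 to 3.01). AP1 was at 0.970 (0.806 to 1.16), so its lower level was not detectable in these nuclei. REM22 had 18 UMIs against 2.71 and 16 against 1.97, or 7.26 (4.88 to 10.5). DRNL, an AP2-domain gene of organ founder cells, had 4 against 0.590 and 10 against 0.192, but 9 of the day 4 UMIs lay in 1 nucleus. SUP had 2 UMIs at day 3 and 0 at day 4, too few to read.

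Nuclei with both AP3 and PI but no AG (375 and 208), measured against the same nuclei without the 3 genes, had another order of genes. UFO was at 5.68 (3.99 to 8.02) and SEP3 at 5.36 (4.65 to 6.17), whereas REM34 was at 1.56 (1.39 to 1.76), REM36 at 0.748 (0.624 to 0.891), CRC at 0.889 (0.554 to 1.38) and SPT at 1.18 (0.992 to 1.40). In AG-positive nuclei without the B genes the same genes stood at 0.966 (0.115 to 3.60) for UFO, 2.01 (1.54 to 2.59) for REM36 and 2.37 (1.00 to 4.82) for CRC, beside the values for SEP3, REM34 and SPT above. These ratios share their comparison nuclei, and the differences between them were not tested. BP was below expectation in all 3 groups, between 0.525 and 0.611.

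**Figure D5:**
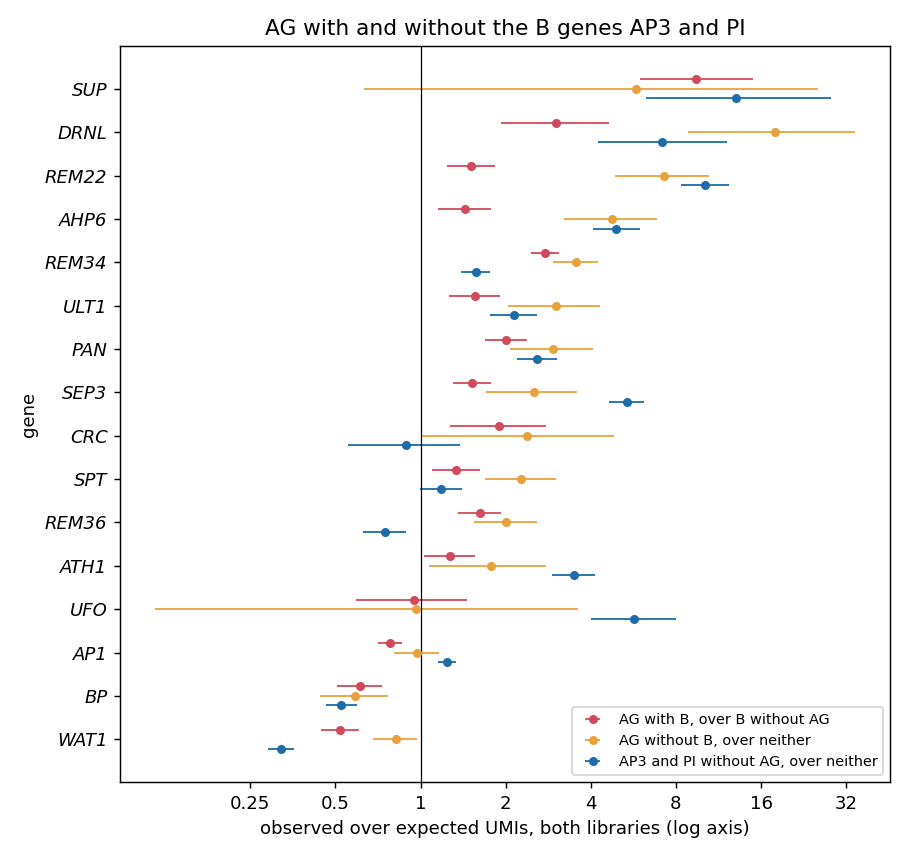
Observed over expected UMIs over both libraries (horizontal log axis, points with 95% counting intervals) for 16 genes in 3 comparisons: AG with AP3 or PI over AP3 or PI without AG (red), AG without the B genes over nuclei with none (orange), and AP3 and PI without AG over nuclei with none (blue). UFO reaches 5.68 only in blue, REM34 reaches 2.75 and 3.54 in red and orange but 1.56 in blue, and SUP reaches 9.42 in red.

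The number of AG UMIs in a nucleus moved with several of these genes. Nuclei with at least 2 AG UMIs (64 and 35) and nuclei with 1 (218 and 115) were each compared with AG-negative nuclei. PI was at 4.79 (4.19 to 5.46) in the first and 2.90 (2.60 to 3.23) in the second, SUP at 29.7 (17.0 to 50.1) and 8.56 (5.05 to 14.1), and CRC at 3.60 (2.32 to 5.39) and 1.19 (0.731 to 1.85). The CRC values rest on few nuclei, since 17 of its 39 day 3 UMIs lay in 1 nucleus. SEP3 was at 2.79 (2.20 to 3.50) and 2.08 (1.75 to 2.46), and PAN at 3.19 (2.50 to 4.02) and 2.34 (1.95 to 2.77), with overlapping intervals for each gene. WAT1 moved the other way, with 0.281 (0.213 to 0.362) against 0.518 (0.455 to 0.588). Median depth was also higher with at least 2 AG UMIs, at 2767 and 2471 UMIs against 2264 and 1946, and its part in these values beyond the matching by depth was not tested.

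Between the days, the B function genes were lower at day 4 and the SEPALLATA and REM genes stayed level in AG-positive nuclei. The level of AP3 and PI together was 809 CPM (760 to 861) on day 3 against 672 CPM (595 to 756) on day 4, a day 4 over day 3 ratio of 0.830 (0.724 to 0.949), where AG-negative nuclei of like depth gave 0.634. SEPALLATA genes stood at 501 and 515 CPM and REM genes at 519 and 524 CPM. Of the lists, xylem genes were lower at day 4, at 36.2 CPM against 119 CPM, a ratio of 0.305 (0.166 to 0.520) whose day 3 level rested on single nuclei as given above. Mitochondrial retrograde genes, which respond to mitochondrial dysfunction, were higher, and of these AOX1A, UPOX, AT12CYS2, UGT74E2, MATE and SOT12 are in the cluster markers that the study listed, so their direction is not independent evidence. Their summed level was 443 CPM (407 to 482) on day 3 against 1351 CPM (1241 to 1468) on day 4, a ratio of 3.05 (2.70 to 3.44), beside 2.52 in AG-negative nuclei. AOX1A, the alternative oxidase, went from 131 to 379 CPM in AG-positive nuclei and from 114 to 246 CPM in AG-negative ones, so both kinds of nuclei were higher at day 4.

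Genes of the cell cycle were lower at day 4. S phase genes stood at 2012 and 1399 CPM, a ratio of 0.695 (0.634 to 0.762) beside 0.740 in AG-negative nuclei, and genes of the G2 and M phases at 3844 and 2641 CPM, a ratio of 0.687 (0.643 to 0.734) beside 0.934. Of the 6293 genes, 207 (3.29%) were at least 2 times higher and 173 (2.75%) at most 0.5 times as high at day 4 in AG-positive nuclei, with a median ratio of 1.10. Since each day is 1 library with its own sequencer, these differences cannot be told apart from those between libraries.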

How the data were processed

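Single-nucleus RNA was measured by droplet sequencing (10x Chromium v3) in 2 libraries, 1 for each day. The deposited values are raw UMI counts per gene and barcode, which the authors made with Cell Ranger 3.1.0 and the Araport11 annotation; the genome sequence is not given in the sources used here. The day 3 file holds all 6794880 barcodes and the day 4 file 7716 called nuclei. No removal of doublets or free RNA is stated, and none was done here. Genes of the organelle genomes were left out, which took 2.85% and 2.63% of the UMIs in nuclei. The nuclei kept held 11083512 and 10202530 nuclear UMIs, and 6 barcodes occurred in both libraries, none of them AG-positive in both.

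The expected UMIs of a gene came from AG-negative nuclei of the same library in 10 depth bins. The splits used 5 bins, and the comparison with AP3 and PI nuclei used 3. In each bin the AG-negative UMIs were summed and scaled by the total depth of AG-positive over AG-negative nuclei. Predicted shares of nuclei were the AG-negative shares weighted by the number of AG-positive nuclei in each bin. Intervals were exact conditional intervals of the ratio of 2 Poisson counts, exact Poisson intervals for CPM and Clopper-Pearson intervals for shares. A gene was called with at least 20 expected UMIs and a ratio of at least 1.5, or at most 2/3, in both libraries. Genes named are those of 23 lists (193 genes), up to 20 higher and the 10 lowest called genes, ranked by the library in which the ratio was nearer 1, and a few chosen after their values were seen. The members and lists were chosen with earlier results of these data known. Tested on simulated data, the steps recovered 98.0% and 97.0% of 2-fold higher genes at day 3 and day 4 and called 2.29% and 1.84% of unchanged genes in single libraries. The simulated nuclei of a group differed only by counting, without the cell types and the single nuclei rich in a gene that the real data hold. These rates therefore may not carry over to the real data. Alternatives varied the gene minimum, the AG minimum, depth matching, thinning, the comparison nuclei, the expected UMIs and scaling. Gene names came from the TAIR10.1 RefSeq table, which held 36632 of 36917 identifiers. Python 3.11.15, numpy 2.4.6, scipy 1.17.1 and pandas 2.3.3 were used.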

Additional observations from a re-analysis of the deposited data

Results flagged for a closer look

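The 16 genes of the G2 and M phases lay on opposite sides of AG-negative nuclei in the libraries, which is why they are listed here. Their UMIs in AG-positive nuclei were 1.04 (1.01 to 1.07) times the expected number at day 3 and 0.767 (0.721 to 0.815) times at day 4. Among them, CDC20.1, an activator of the anaphase-promoting complex, was at 1.06 (1.01 to 1.12) and 0.785 (0.706 to 0.870), and KNOLLE, a syntaxin of the cell plate, at 1.20 (1.07 to 1.33) and 0.731 (0.566 to 0.929). The number of nuclei moved less, since CDC20.1 was found in 158 members against 151 predicted at day 3 and in 61 against 56.6 at day 4. With 1 library per day the difference was not tested.

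Another 3 genes had ratios on opposite sides of 1 with intervals that left out 1. MATE, a transporter gene of the retrograde list, was at 0.397 (0.202 to 0.708) on day 3 against 1.34 (1.05 to 1.69) on day 4, and 30 of its 76 day 4 UMIs lay in 1 nucleus. CESA4, a cellulose synthase gene of secondary walls, was at 4.22 (2.64 to 6.65) at day 3, with 30 of 31 UMIs in 1 nucleus, and at 0 at day 4, where 7.76 UMIs were expected. CA1, a chloroplast carbonic anhydrase gene, was at 2.83 (1.93 to 4.09) and 0.293 (0.0600 to 0.870), with 17 of its 40 day 3 UMIs in 1 nucleus. These differences were not tested.

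Barcodes with at least 500 but fewer than 1000 genes were outside the comparisons and also contained AG. At day 3, 146 of 5433 such barcodes (2.69%, 2.27 to 3.15) had an AG UMI, and at day 4, 45 of 3108 (1.45%, 1.06 to 1.93). AP3 or PI was found in 47.9% of them at day 3 and 44.4% at day 4, against 21.0% and 19.3% predicted from barcodes of like depth without AG. PI was at 4.38 (3.46 to 5.48) and 5.39 (3.47 to 8.04) times the expected UMIs and AP3 at 2.39 (1.83 to 3.08) and 2.18 (1.28 to 3.48). REM34 was at 4.26 (3.44 to 5.22) and 2.14 (1.06 to 3.88), while WAT1 was at 0.602 (0.392 to 0.885) and 0.115 (0.0139 to 0.417). SEP3 was higher at day 3, at 2.66 (1.77 to 3.86), but at day 4, with 6 UMIs against 4.53, it was at 1.32 (0.482 to 2.92). These barcodes were not used to choose the members, and whether they are nuclei was not tested.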

How the results depend on the processing

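No paired analysis was possible because each day has 1 library and the replicate numbers only name the samples. The share of nuclei with an AG UMI, 6.41% at day 3 and 3.30% at day 4, was 4.35% and 2.55% with a minimum of 500 genes, 9.14% and 4.67% with 1500 genes, 1.46% and 0.770% with at least 2 AG UMIs, 3.21% and 1.85% after thinning, and 5.04% at day 3 without the deepest 8% of nuclei. The number of members with AP3 or PI over the predicted number was 1.78 at day 3 and became 1.91 with 500 genes, 1.62 with 1500, 2.18 after thinning, 2.29 without depth bins and 2.096 without the deepest nuclei. At day 4 it was 2.22 and became 2.92 after thinning. Summed UMIs of AP3 and PI, at 2.50 times the expected number at day 3, reached 3.21 with at least 2 AG UMIs, 2.78 after thinning and 3.02 without the deepest nuclei. At day 4 they moved from 3.27 to 2.67 with 1500 genes, 3.75 with at least 2 AG UMIs, 4.38 after thinning and 3.90 without the deepest nuclei. The retrograde ratio of 3.05 became 3.61 with at least 2 AG UMIs and 3.62 without the deepest nuclei.

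The 19 higher genes became 11 with 1500 genes, 2 with at least 2 AG UMIs, 4 after thinning, 6 against nuclei with AP3 and PI, 111 with 5 expected UMIs and 3 with 50. Without the deepest nuclei 16 passed, 10 of them among the 19, of which 11 could be tested. The 96 lower genes became 36 with at least 2 AG UMIs, 20 after thinning, 15 against nuclei with AP3 and PI, 411 with 5 expected UMIs and 24 with 50. Fewer genes could be tested with more AG UMIs, after thinning and with 50 expected UMIs, and more with 5.

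Against nuclei with both AP3 and PI, which were chosen for these genes, B function genes were at 0.727 and 0.530, PI at 0.732 and AP3 at 0.619. In the same comparison SEP3 was at 0.973, CYP78A5 at 0.973, CRF2 at 0.987, ACL5 at 1.17 and AT5G42530 at 1.23, with SEPALLATA genes at 0.844 at day 4, organ boundary genes at 0.979 and 0.948 and procambium genes at 1.00 and 1.26. Relatives of AG were at 0 at day 3 after thinning and without the deepest nuclei, and AT2G32415 was at 0.725 after thinning. The cause was not tested. Of 270 further values for single genes 262 kept their direction, and of 414 for lists 376 did.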

Other observations

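Genes of auxin response and organ initiation were higher as a sum in AG-positive nuclei. DRNL, an AP2-domain gene that marks organ founder cells, had 33 UMIs in 19 members at day 3 against 7.57 expected, and 15 in 6 members at day 4 against 1.15, of which 9 lay in 1 nucleus. AHP6, an inhibitor of cytokinin signalling in young organs, had 111 UMIs against 59.7 and 37 against 7.76. It was found in 41 members against 23.9 predicted at day 3 and in only 9 against 3.29 at day 4. Of these UMIs, 13 at day 3 and 9 at day 4 lay in 1 nucleus. MP, the auxin response factor that starts flower primordia, had 638 against 502 and 209 against 146, and was found in 69.9% and 62.7% of members against 56.7% and 42.5% predicted. TAA1 at day 3 and PID at day 4 were below expectation, with 16 UMIs against 33.7 and 39 against 53.4. The 10 genes of this list together reached 1.303 (1.23 to 1.38) and 1.44 (1.31 to 1.59) times the expected UMIs. The rise was not particular to AG-positive nuclei. Over nuclei without AG, AP3 and PI, the list stood at 1.36 and 1.39 in AP3 and PI nuclei without AG. AG-positive nuclei without AP3 and PI were at 1.36 and 1.40 over the same kind of nuclei. Among nuclei with AP3 or PI, those with AG were at 1.23 (1.15 to 1.31) and 1.29 (1.14 to 1.46) over those without.

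Genes of organ polarity differed less. The adaxial genes summed to 1.06 (0.996 to 1.14) and 1.13 (1.03 to 1.25), with PHB, a class III homeodomain gene, at 1.35 (1.17 to 1.56) and 1.31 (1.04 to 1.63). The abaxial genes summed to 0.986 (0.932 to 1.04) and 0.902 (0.822 to 0.988), and 0 of the 10 genes tested in either list passed a threshold in both libraries.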
